A study of Saccharomyces cerevisiae with 6 samples.

Results

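The genes described here encode the machinery that copies chromosomal DNA in Saccharomyces cerevisiae. All 41 genes of a named list were found by gene name among the 5703 features of the deposited tables, 1 row for each, and all 41 passed the filter on low values. They cover the origin recognition complex (ORC) with CDC6, the MCM2-7 helicase, CDC45 with the GINS complex and the firing factors, DNA polymerases alpha, epsilon and delta, the sliding clamp PCNA with its loader RFC, and the single-strand binding protein RPA. The list was drawn up by function, with earlier results of these data known. The genes lie on 14 chromosomes of the IMF17 assembly, none of them on the neochromosome, and their models are 369 to 6669 bases long.

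Strain IMF17, which expresses glycolysis exclusively from a neochromosome (an added synthetic chromosome), was compared with strain IMX2109, which expresses it from the native genome. Both strains were grown aerobically in 100 mL of selective minimal glucose medium in 500 mL shake flasks to mid-exponential phase (an OD660 of 8). Each strain was sampled as 3 biological replicate cultures, and polyadenylated RNA was sequenced. The labels give no ploidy and no further genotype of the strains. FPKM is the number of reads per kilobase of gene length, scaled to the counted reads of a library. STE2, the receptor that marks cells of mating type a, ranged from 537 to 544 FPKM among IMF17 libraries and from 537 to 553 FPKM among IMX2109 libraries. STE3, its alpha-cell counterpart, ranged from 9.21 to 12.1 FPKM among IMF17 libraries and from 9.92 to 10.9 FPKM among IMX2109 libraries.

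Replication starts at origins that ORC marks throughout the cell cycle. In G1, Cdc6 and Cdt1 help ORC to load the MCM2-7 ring onto DNA, and at the start of S phase Cdc45 and GINS join the ring to make an active helicase. Polymerase alpha-primase then lays down primers, polymerase epsilon extends the leading strand, and polymerase delta with PCNA extends the lagging strand. Many of these genes in budding yeast are transcribed in late G1 by the factor MBF, which binds the MluI cell cycle box, ACGCGT.

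The box was common in front of these genes. In the 300 bases from 250 before to 50 after the first base of each R64 gene model (R64 is the RefSeq reference genome of strain S288C), 16 of 41 replication promoters (39.0%) held ACGCGT, which reads the same on both strands, against 184 of all 6001 protein-coding promoters (3.07%). It stood in front of 3 of 3 polymerase delta genes, 3 of 4 polymerase alpha-primase genes, 2 of 3 RPA genes, 2 of 4 polymerase epsilon genes, 3 of 8 genes of CDC45, GINS and the firing factors, 2 of 6 PCNA and RFC genes, 1 of 7 ORC and CDC6 genes and 0 of 6 MCM2-7 genes. The 21 occurrences lay 85 to 222 bases before the start codon. The letters CACGAAA, bound by the related factor SBF and searched on both strands, were in 3 of 41 replication promoters (7.32%), those of MCM7, SLD5 and RFC1, and in 252 of 6001 promoters overall (4.20%). No replication promoter held both motifs. A match of letters is a description and not a measured binding site.

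The promoters of the 3 genes that held ACGCGT and passed the test between the strains are shown 5′ to 3′ in the direction of transcription, with the box in capitals. On R64 they are POL30 at chrII:425717-426016 (minus strand), CDC6 at chrX:69088-69387 (plus strand), POL32 at chrX:517464-517763 (minus strand).
POL30: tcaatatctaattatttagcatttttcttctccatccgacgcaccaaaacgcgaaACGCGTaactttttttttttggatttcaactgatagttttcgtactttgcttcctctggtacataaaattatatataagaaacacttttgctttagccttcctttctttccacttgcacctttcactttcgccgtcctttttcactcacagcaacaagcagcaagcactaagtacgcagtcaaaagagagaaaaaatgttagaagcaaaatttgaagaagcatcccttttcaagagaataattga
CDC6: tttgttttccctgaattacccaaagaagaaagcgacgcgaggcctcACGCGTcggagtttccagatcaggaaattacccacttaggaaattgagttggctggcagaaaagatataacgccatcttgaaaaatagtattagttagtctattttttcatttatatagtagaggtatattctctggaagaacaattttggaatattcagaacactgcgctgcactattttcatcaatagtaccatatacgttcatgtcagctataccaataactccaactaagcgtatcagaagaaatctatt
POL32: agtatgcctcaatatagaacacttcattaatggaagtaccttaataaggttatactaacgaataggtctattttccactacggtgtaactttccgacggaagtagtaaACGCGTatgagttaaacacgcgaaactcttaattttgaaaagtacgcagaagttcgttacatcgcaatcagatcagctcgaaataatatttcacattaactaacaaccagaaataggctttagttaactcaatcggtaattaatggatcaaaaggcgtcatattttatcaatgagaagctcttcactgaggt
In 5 further promoters the box occurred at a pair of positions, 12 to 35 bases apart from start to start. These stretches run from 10 bases before the first box to 10 bases after the last, with both boxes in capitals, and were chosen for the pair of boxes. They are RFA2 at chrXIV:48157-48194 (plus strand), RFA1 at chrI:158739-158794 (minus strand), POL12 at chrII:153794-153842 (minus strand), CDC45 at chrXII:346076-346131 (minus strand), POL1 at chrXIV:429869-429929 (plus strand).
RFA2: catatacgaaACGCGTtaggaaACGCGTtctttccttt
RFA1: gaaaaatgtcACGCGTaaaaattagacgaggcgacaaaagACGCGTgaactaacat
POL12: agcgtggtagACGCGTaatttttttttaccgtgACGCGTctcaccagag
CDC45: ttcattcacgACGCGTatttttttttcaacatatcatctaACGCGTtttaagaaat
POL1: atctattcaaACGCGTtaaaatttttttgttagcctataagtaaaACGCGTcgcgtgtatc
None of these 5 genes passed the test between the strains. Among the 16 genes with the box the median log2 fold change was -0.10 and 3 were lower in IMF17, and among the 25 without it the median was -0.11 and 8 were lower. Those shares were 18.8% with the box and 32.0% without. Among the 5227 tested features matched by name to an R64 promoter, 174 held the box and 21.3% of those were lower. Of the 5053 without it 25.8% were lower, and no difference was tested.

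Replication transcripts were of moderate abundance and differed in level from gene to gene far more than between strains. The median over the 41 genes of the mean level was 41.1 FPKM in IMF17, against 43.9 FPKM in IMX2109. It was 51.1 FPKM in IMF17, against 52.7 FPKM in IMX2109, over the 5557 features of the nuclear chromosomes, which here leave out the neochromosome. By the mean over both strains 11 genes reached 60 FPKM, 28 lay between 20 and 60 FPKM, and CDC6 and POL2 lay below 20 FPKM. POL30, which encodes PCNA, ranked first, followed by RFA3, RFC3, RFA2 and RFA1. Summed over the 41 genes the level was 2068, 2081 and 2104 FPKM in the IMF17 libraries, against 2280, 2284 and 2330 FPKM in the IMX2109 libraries. The groups did not overlap, but these sums were not rescaled. FPKM is scaled to all counted reads, of which nuclear features took 84.2 to 84.9% in IMF17 and 90.0 to 91.0% in IMX2109. Each gene had 352 to 3427 reads in a library. Longer genes tended to be lower, with a Spearman correlation of -0.61 between length and mean level across the 41 genes and -0.36 across 5347 tested nuclear features, given as a description since the genes share the same libraries.

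**Figure D1:**
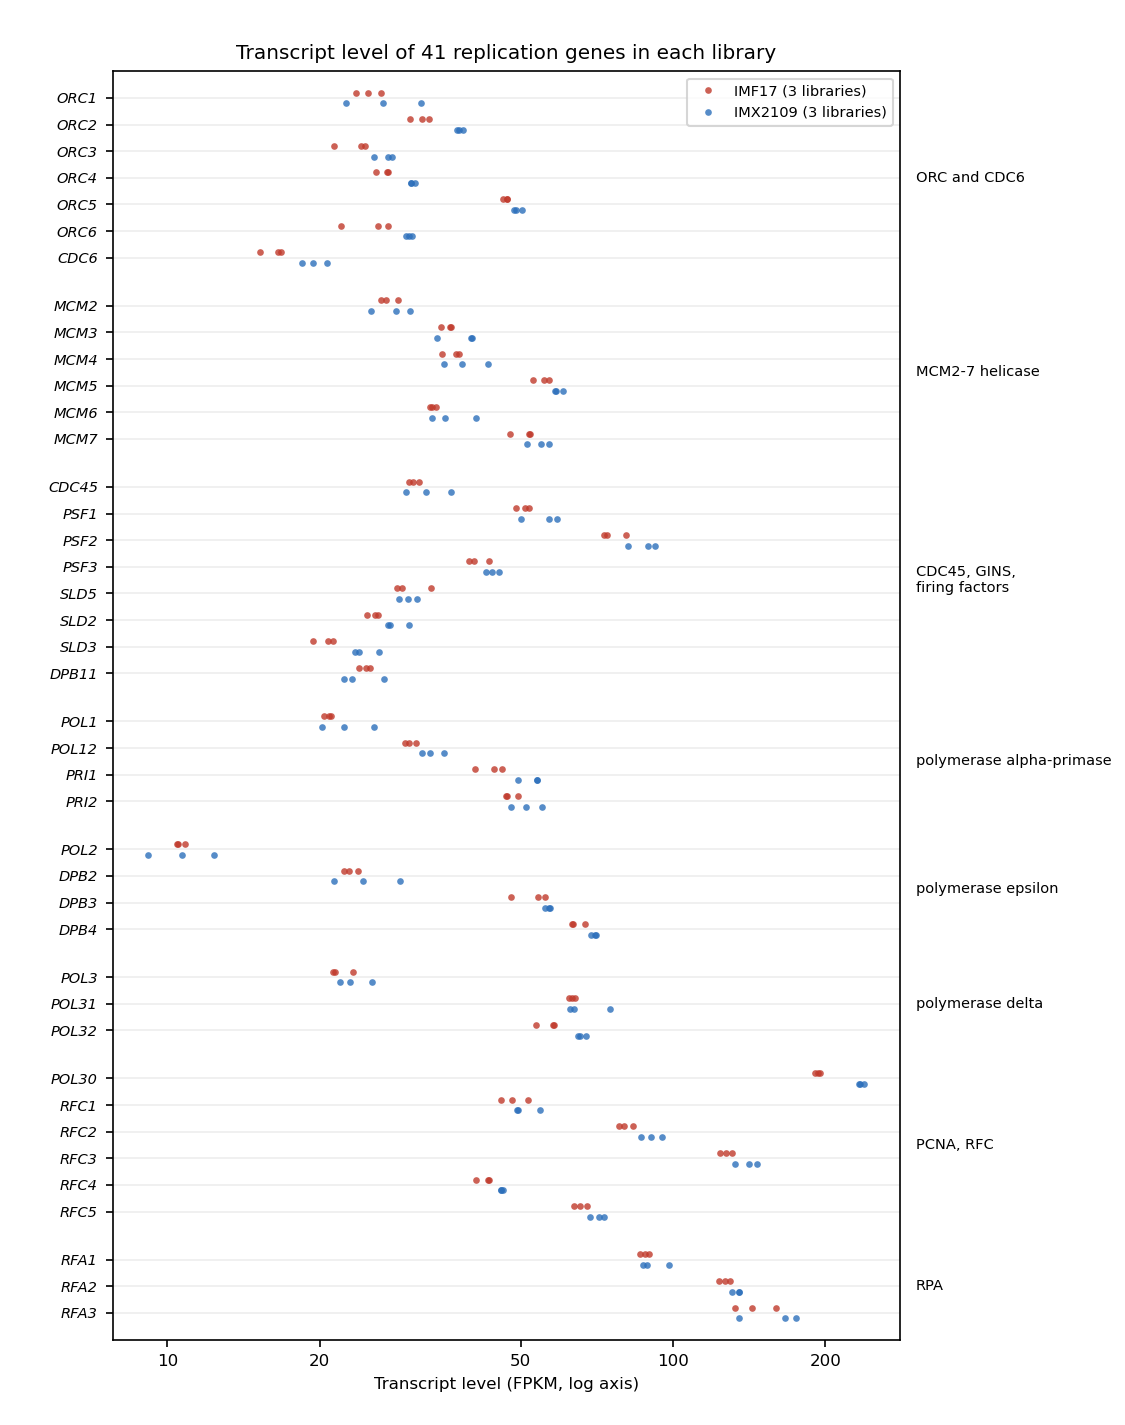
Transcript level in FPKM (horizontal log axis) of the 41 replication genes, grouped by complex down the page. Each point is 1 library, with the 3 IMF17 libraries in red above the 3 IMX2109 libraries in blue; POL30 is the highest gene and POL2 the lowest in both strains, and in no gene do all 3 IMF17 points lie to the right of all 3 IMX2109 points.

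Of the 41 genes, 11 were lower in IMF17 and 0 were higher (limma on log2(FPKM + 1), adjusted p under 0.05 over all tested features). They were POL30, ORC2, POL32, PRI1, SLD3, CDC6, PSF2, RFC2, ORC6, ORC4 and RFC3, with log2 fold changes of IMF17 over IMX2109 from -0.28 to -0.14. That share, 26.8%, lay near the background, since 25.3% of all 5425 tested features were called lower and 12.1% higher, so the count is not a result about replication genes. Direction was more one-sided than in the transcriptome as a whole: 39 of 41 log2 fold changes were below 0, against 66.5% of all tested features, which was not tested. The median was -0.11 over the replication genes and -0.07 over all features. For 21 of the 41 genes all 3 IMF17 libraries were below all 3 IMX2109 libraries, against 35.1% of all tested features, and for 0 genes all 3 were above, against 14.5%.

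The calls depended on how libraries were scaled. Features of the nuclear chromosomes took 84.2 to 84.9% of counted reads in IMF17 and 90.0 to 91.0% in IMX2109, and FPKM is scaled to all counted reads. After median-ratio rescaling, which divides each library by the median ratio of its features to a common reference, 5 genes (POL30, ORC2, POL32, PRI1 and SLD3) were lower and 0 higher, against a background of 11.8% lower and 16.3% higher. After rescaling on nuclear reads POL30 alone was lower and 0 genes were higher, against 8.84% lower and 19.0% higher. Over all tested features the calls were 1375 lower and 654 higher on deposited values, 639 lower and 882 higher after median-ratio rescaling, and 480 lower and 1033 higher after nuclear rescaling. The median over the 41 genes was -0.05 and -0.02 in these rescalings, and 36 and 28 of the 41 genes were below 0, against 51.1 and 42.7% of all tested features.

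**Figure D2:**
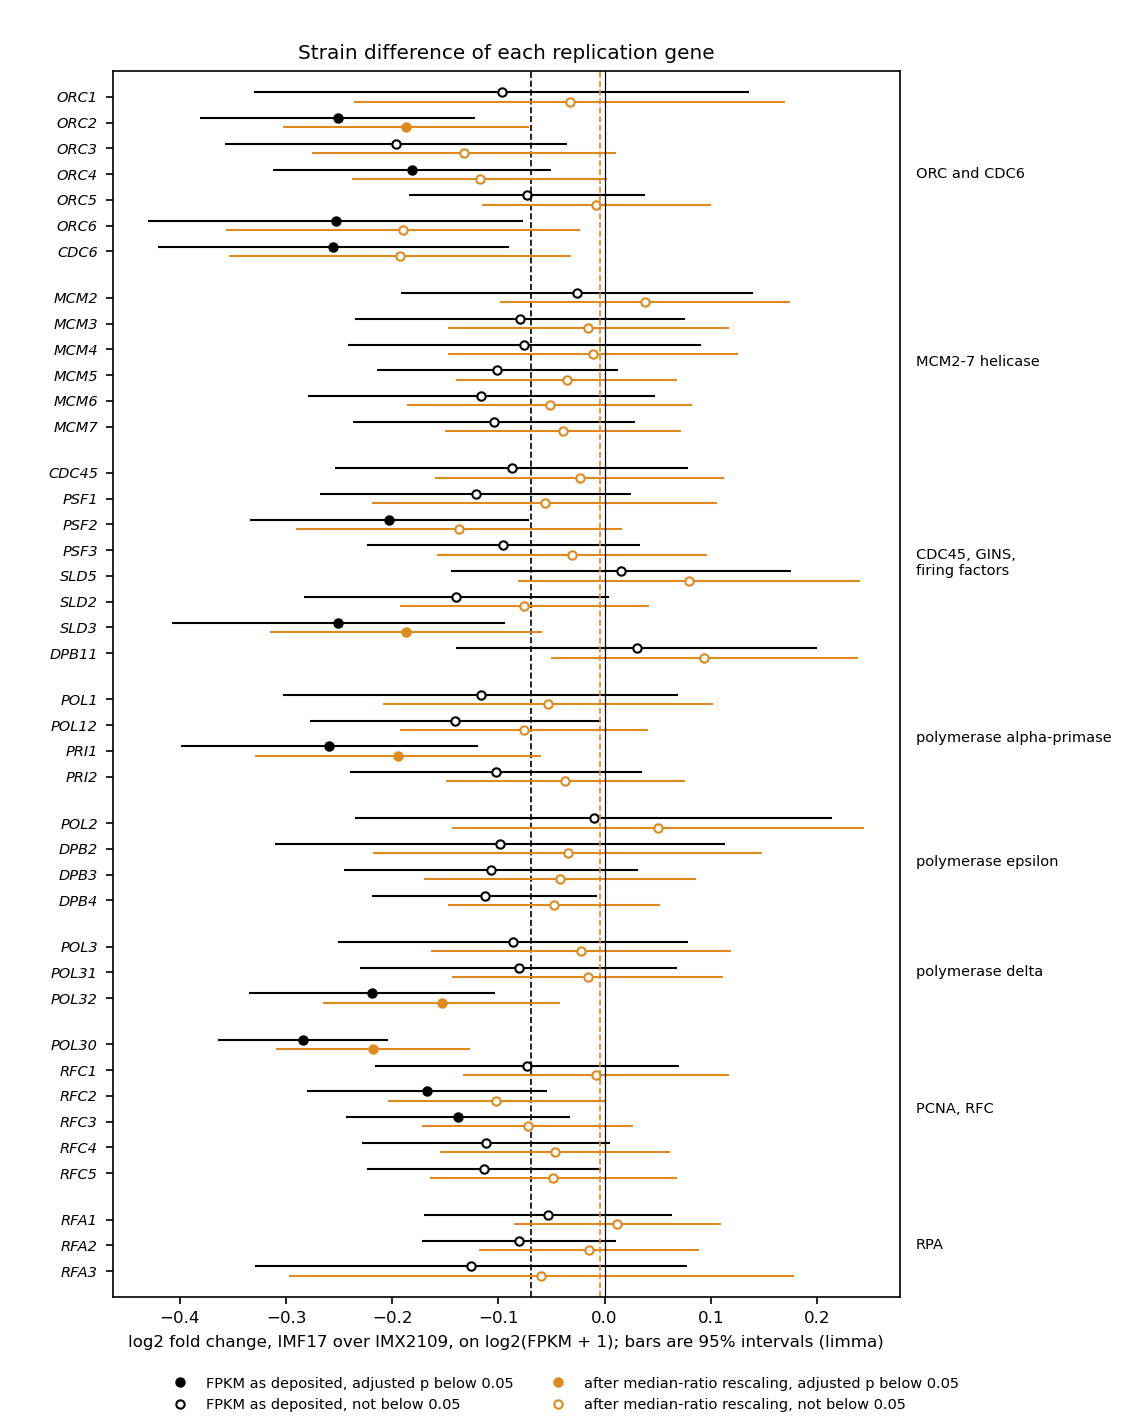
Log2 fold change of IMF17 over IMX2109 for each replication gene (horizontal axis), with its 95% interval from limma, on deposited FPKM (black) and after median-ratio rescaling (orange). Filled points passed adjusted p under 0.05, 11 genes in black and 5 in orange; dashed lines mark the median of all tested features in each processing.

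Libraries of IMX2109 differed from each other with gene length, and this bears on the longest replication genes. In IMX2109 replicate 3 the 4 replication genes of 3000 bases or more (POL2, POL1, POL3 and MCM6) were higher than the mean of the other IMX2109 libraries by a median of 0.25 on the log2 scale, and the 10 genes under 1000 bases differed by a median of -0.03. Over all tested nuclear features these medians were 0.18 and -0.02. Replicate 1 of IMX2109 went the other way, with a median of -0.21 for the 4 long replication genes against the other IMX2109 libraries. The IMF17 libraries spread less, with medians from -0.03 to 0.03 for the same 4 genes. Without IMX2109 replicate 3, 12 replication genes were lower and 0 higher (background 23.2% lower and 14.0% higher). In that fit PSF1, RFC5 and RFA3 gained a call (limma adjusted p = 0.017, 0.0495 and 0.0298), and RFC2 and RFC3 lost theirs (0.0604 and 0.103).

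**Figure D3:**
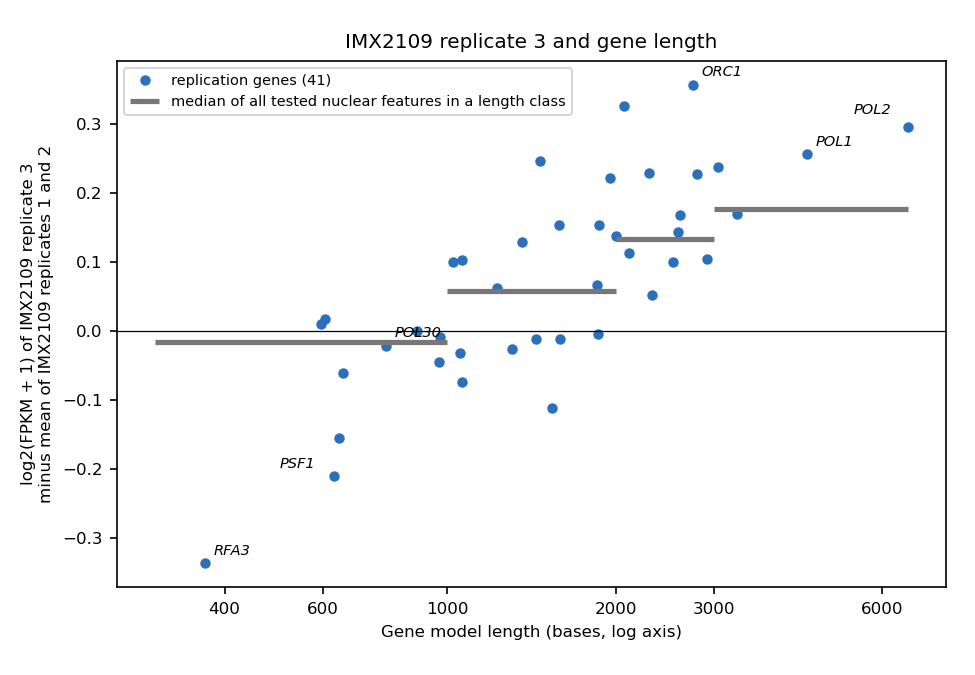
Difference on the log2(FPKM + 1) scale between IMX2109 replicate 3 and the mean of IMX2109 replicates 1 and 2 (vertical axis) against gene model length in bases (horizontal log axis). Blue points are the 41 replication genes and grey bars the medians of all tested nuclear features in 4 length classes; ORC1, DPB2, POL2 and POL1 lie above 0.25, and RFA3 and PSF1 below -0.20.

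ORC and CDC6, which mark and license origins, had 4 of 7 genes lower and 0 higher. Over all tested features 25.3% were lower and 12.1% higher. After median-ratio rescaling 1 of the 7 was lower and after nuclear rescaling 0, against 11.8 and 8.84% of all features. ORC2 had 30.2, 31.9 and 32.9 FPKM in IMF17, against 37.3, 38.5 and 37.8 FPKM in IMX2109. It encodes an ORC subunit, and its groups did not overlap. The difference was 1.20-fold (log2 fold change -0.25 ± 0.06, SE; limma adjusted p = 0.00676). ORC6, whose product is the smallest ORC subunit and contacts Cdt1, had 22.0, 27.3 and 26.0 FPKM in IMF17, against 30.5, 30.0 and 29.7 FPKM in IMX2109. Replicate 1 of IMF17 was the low one, and the log2 fold change was -0.25 ± 0.08 (SE, limma adjusted p = 0.0285). ORC4, an ATPase-family subunit, had 27.2, 27.3 and 25.8 FPKM in IMF17, against 30.3, 30.8 and 30.3 FPKM in IMX2109 (limma adjusted p = 0.033). CDC6, the loading ATPase that is made and destroyed in every cycle, had 16.8, 15.2 and 16.6 FPKM in IMF17, against 19.4, 20.7 and 18.5 FPKM in IMX2109. It was the lowest of the 7 genes and 1.21-fold lower in IMF17, with no overlap (limma adjusted p = 0.0208).

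The other ORC genes did not pass. ORC5 was the most abundant of the complex, with 46.9, 47.0 and 46.2 FPKM in IMF17, against 50.2, 48.4 and 48.9 FPKM in IMX2109. Its groups did not overlap, yet the difference was small (log2 fold change -0.07, 95% interval -0.18 to 0.04). ORC3 lay just outside the threshold with a log2 fold change of -0.20 (limma adjusted p = 0.0548), and ORC1, the largest subunit and an ATPase, had the widest standard error of all 41 genes, 0.11. Its values were 23.6, 24.9 and 26.5 FPKM in IMF17, against 22.6, 26.7 and 31.7 FPKM in IMX2109, where replicate 3 was the highest.

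None of the 6 MCM2-7 genes, which encode the helicase ring, passed the test (limma adjusted p from 0.149 to 0.812). At an unadjusted limma p under 0.05, 0 of 6 passed. Over all tested features 25.3% were lower and 12.1% higher. With the length trend removed from each library 2 of the 6, MCM5 and MCM6, were lower, against 30.2% of all features. MCM5, the most abundant, had 55.6, 52.8 and 56.8 FPKM in IMF17, against 58.6, 58.3 and 60.6 FPKM in IMX2109, with a log2 fold change of -0.10 (95% interval -0.21 to 0.01). MCM2, the least abundant, had 26.4, 27.1 and 28.6 FPKM in IMF17, against 25.3, 28.3 and 30.2 FPKM in IMX2109. Those groups overlapped (log2 fold change -0.03, 95% interval -0.19 to 0.14). Levels of the 6 subunits of the ring, which holds 1 copy of each, stayed within a 2.07-fold range. The intervals of MCM3, MCM4, MCM6 and MCM7 also reached both sides of 0, from -0.28 to 0.09 at their widest.

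Among CDC45, the GINS subunits and the firing factors 2 of 8 genes were lower (25.0%) and 0 higher. That share lay near the background of 25.3% lower and 12.1% higher over all tested features. After median-ratio rescaling 1 of the 8 was lower and after nuclear rescaling 0, against 11.8 and 8.84% of all features. PSF2, a GINS subunit and the most abundant of the 8, had 80.6, 73.0 and 74.1 FPKM in IMF17, against 92.0, 89.3 and 81.3 FPKM in IMX2109. The closest libraries were IMF17 replicate 1 and IMX2109 replicate 3, and the difference was 1.15-fold (limma adjusted p = 0.0212). SLD3, which recruits Cdc45 to loaded MCM2-7, had 19.4, 20.8 and 21.3 FPKM in IMF17, against 23.5, 24.0 and 26.2 FPKM in IMX2109. It was the least abundant of the 8 by the mean over both strains and 1.20-fold lower, with no overlap (limma adjusted p = 0.0179). SLD5, the remaining core GINS subunit beside the PSF proteins, and DPB11, the scaffold that binds phosphorylated Sld2 and Sld3, were the 2 replication genes with a log2 fold change above 0, at 0.02 (95% interval -0.14 to 0.18) and 0.03 (-0.14 to 0.20). CDC45, PSF1, PSF3 and SLD2 lay between -0.14 and -0.09 and did not pass.

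In each replicative polymerase the DNA polymerase catalytic subunit had the least abundant transcript and also the longest gene. POL1, the catalytic subunit of polymerase alpha, had 20.9, 20.4 and 21.1 FPKM in IMF17, against 20.2, 22.3 and 25.6 FPKM in IMX2109. POL2, that of polymerase epsilon and at 6669 bases the longest of the 41 genes, had 10.5, 10.5 and 10.8 FPKM in IMF17, against 9.17, 10.7 and 12.4 FPKM in IMX2109. POL3, that of polymerase delta, had 23.2, 21.2 and 21.5 FPKM in IMF17, against 21.9, 23.0 and 25.3 FPKM in IMX2109. All 3 overlapped between strains and none passed (log2 fold changes -0.12, -0.01 and -0.09). In each of them IMX2109 replicate 3 was the highest library, and without it the log2 fold changes were -0.03, 0.09 and -0.03.

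Of the accessory and primase subunits PRI1 and POL32 were lower. PRI1, the catalytic primase, had 44.3, 40.5 and 45.9 FPKM in IMF17, against 53.8, 49.4 and 53.8 FPKM in IMX2109, a 1.20-fold difference (log2 fold change -0.26 ± 0.06, SE; limma adjusted p = 0.00864). Its partner PRI2, the large primase subunit and the most abundant of that complex, had 47.0, 46.8 and 49.4 FPKM in IMF17, against 47.8, 51.2 and 55.1 FPKM in IMX2109, and did not pass (limma adjusted p = 0.222). POL32, the nonessential subunit of polymerase delta that contacts PCNA, had 53.5, 57.9 and 58.2 FPKM in IMF17, against 65.6, 67.3 and 64.9 FPKM in IMX2109. Its groups were well apart, with a log2 fold change of -0.22 ± 0.05 (SE, limma adjusted p = 0.00781). POL31, the essential subunit that joins Pol32 to Pol3, had 63.0, 63.98 and 62.3 FPKM in IMF17, against 63.7, 62.4 and 75.0 FPKM in IMX2109. Only IMX2109 replicate 3 stood above the rest, and the gene did not pass (log2 fold change -0.08). POL12, the B subunit of polymerase alpha, did not pass either (limma adjusted p = 0.0994).

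Polymerase epsilon had 0 of 4 genes past the threshold (limma adjusted p from 0.0881 to 0.944). Over all tested features 25.3% were lower and 12.1% higher. Only DPB4 had an unadjusted limma p under 0.05, of 0.039. DPB4, a histone-fold subunit and the most abundant of the complex, had 63.2, 66.9 and 63.4 FPKM in IMF17, against 68.8, 70.5 and 70.1 FPKM in IMX2109. The groups did not overlap, and the 95% interval of the log2 fold change ran from -0.22 to -0.01. DPB3, its histone-fold partner, and DPB2, the essential accessory subunit, had log2 fold changes of -0.11 and -0.10. From POL2 to DPB4 levels spanned 6.29-fold, the widest range within a complex here.

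POL30 showed the most stable difference of the 41 genes. It encodes PCNA, the ring that tethers polymerases to DNA, on chromosome 2 of the IMF17 assembly from 414904 to 415680. It had 191, 194 and 195 FPKM in IMF17, against 235, 239 and 233 FPKM in IMX2109. Libraries within a strain agreed closely and the strains were far apart, with a mean of 193 ± 2.25 FPKM for IMF17 and 235 ± 2.85 FPKM for IMX2109 (SD, n = 3). The difference was 1.22-fold (log2 fold change -0.28 ± 0.04, SE; limma adjusted p = 0.000161). It passed under all 19 alternative settings, with limma adjusted p from 0.000133 to 0.00302, and was the only replication gene called after nuclear rescaling (log2 fold change -0.19).

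The loader RFC, which opens PCNA and places it on primed DNA, had 2 of 5 genes lower, against 25.3% of all tested features. RFC2 had 78.1, 83.4 and 80.0 FPKM in IMF17, against 90.6, 86.2 and 94.95 FPKM in IMX2109 (1.12-fold, limma adjusted p = 0.0251). RFC3 had 124, 127 and 131 FPKM in IMF17, against 141, 133 and 147 FPKM in IMX2109 (1.10-fold, limma adjusted p = 0.0418), the closest of the 11 called genes to the threshold. Both encode small loader subunits, and in neither did the groups overlap. RFC4, the least abundant of the loader and clamp genes, had 40.8, 43.1 and 43.2 FPKM in IMF17, against 46.2, 45.6 and 45.6 FPKM in IMX2109. It did not overlap and did not pass (limma adjusted p = 0.123). RFC5 lies 160 bases from POL30, the pair facing each other, and had a log2 fold change of -0.11 that did not pass (limma adjusted p = 0.0968). RFC1, the large subunit, overlapped between strains (limma adjusted p = 0.404).

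RPA, which coats single-stranded DNA, had 0 of 3 genes past the threshold (limma adjusted p from 0.153 to 0.455). At an unadjusted limma p under 0.05, 0 of 3 passed. Over all tested features 25.3% were lower and 12.1% higher. RFA3, the smallest subunit and the shortest gene of the list at 369 bases, had 160, 132 and 143 FPKM in IMF17, against 175, 166 and 135 FPKM in IMX2109. The groups overlapped because IMX2109 replicate 3 was low, and the log2 fold change was -0.13, or -0.24 without that library. RFA1, the large subunit, had 86.0, 88.0 and 89.5 FPKM in IMF17, against 87.3, 88.6 and 97.9 FPKM in IMX2109 (log2 fold change -0.05, 95% interval -0.17 to 0.06). RFA2, the middle subunit, had a log2 fold change of -0.08. RPA was the most evenly expressed complex, within a 1.70-fold range.

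Leaving out 1 library at a time ended the call of 8 of the 11 lower genes in at least 1 fit. POL30, ORC2 and POL32 stayed past the threshold without any one library. PRI1 was lost without IMF17 replicate 2 (limma adjusted p = 0.0518), SLD3 without IMF17 replicate 1 or 2 (0.0749 and 0.0548), and CDC6 without IMF17 replicate 2 or IMX2109 replicate 2 (0.0981 and 0.105). ORC6 was lost without IMF17 replicate 1 or IMX2109 replicate 1 or 2 (limma adjusted p from 0.0572 to 0.109). RFC2 was lost without IMF17 replicate 1 or 3 or IMX2109 replicate 3 (0.0603 to 0.087), and PSF2 without IMF17 replicate 2 or 3 or IMX2109 replicate 1 or 2 (0.0636 to 0.0946). RFC3 was lost without IMF17 replicate 1 or 2 or IMX2109 replicate 1 or 3 (0.0829 to 0.127), and ORC4 without any library but IMX2109 replicate 3 (0.0506 to 0.121). In all these fits the log2 fold changes of the 11 genes stayed below 0.

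The number of lower replication genes differed between settings, as did the share over all features. Without IMF17 replicate 1, 2 or 3 the lower genes numbered 6, 5 and 8, against backgrounds of 17.5, 17.3 and 23.3% lower and 9.95, 9.68 and 11.8% higher. Without IMX2109 replicate 1 or 2 they numbered 7 each time, against 24.4 and 18.0% lower and, without replicate 1, 11.3% higher. After rescaling to TPM 9 were lower, against 23.1% lower and 11.6% higher, with ORC4 and RFC3 lost. A trend with gene length removed from each library gave 15 lower genes, against 30.2% lower and 12.9% higher. With median-ratio rescaling added to that there were 5, against 15.1% lower and 17.4% higher, and with median-ratio rescaling but without IMX2109 replicate 3 there were 6, against 15.3% lower and 17.5% higher. The same 11 genes were lower with pseudocounts of 0.1 and 5 (25.4% lower and 12.1% higher with 5), without a filter (24.0% lower, 12.3% higher), with a minimum of 10 FPKM (27.5% lower, 10.2% higher) and with robust variance estimation (25.4% lower). Limma-voom on recovered reads called ORC3 in place of RFC3 (24.7% lower). No setting called a replication gene higher.

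**Figure D4:**
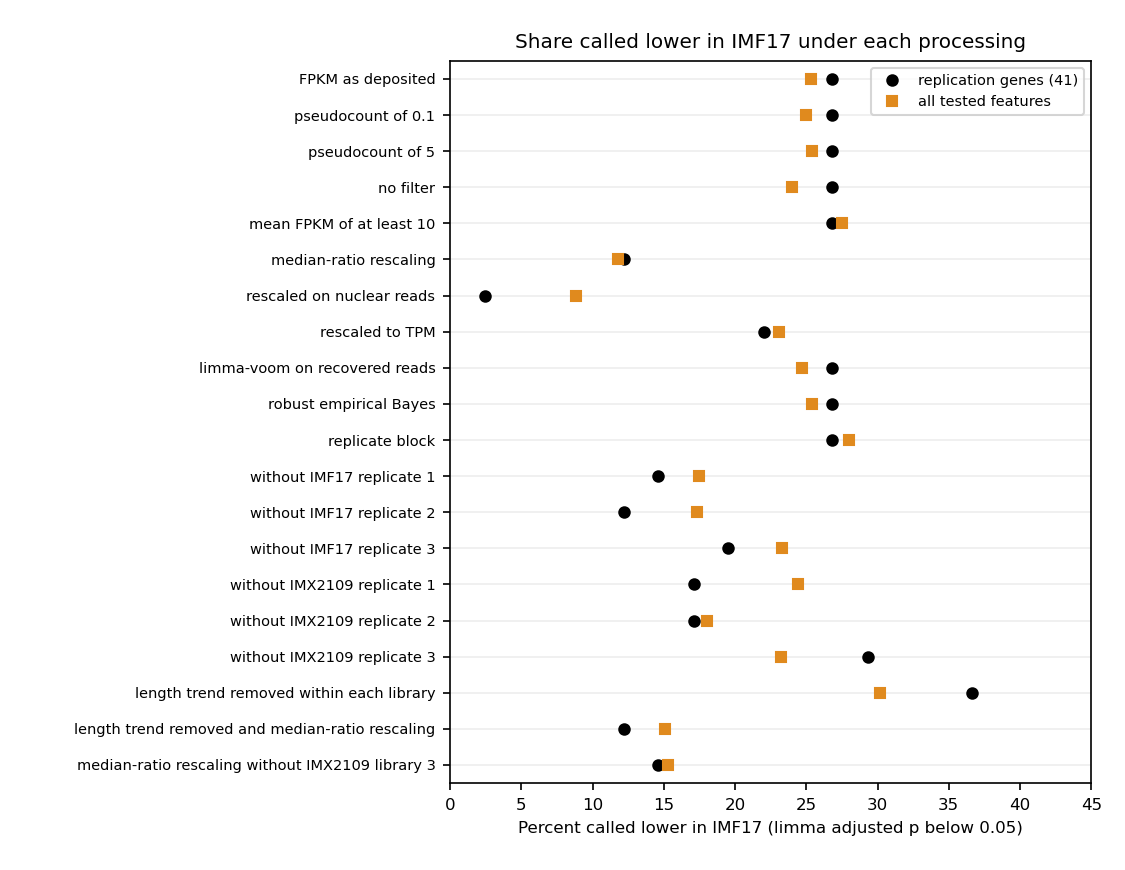
Percent of genes called lower in IMF17 (horizontal axis, limma adjusted p under 0.05) among the 41 replication genes (black circles) and among all tested features (orange squares), for deposited values and 19 alternative settings down the page. For these genes and for all features, the shares are 26.8 and 25.3% on deposited values and 12.2 and 11.8% after median-ratio rescaling. They are 2.44 and 8.84% after rescaling on nuclear reads, and 22.0 and 23.1% after rescaling to TPM.

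Other genes of the fork, of licensing and of chromatin assembly behind the fork had 4 of 30 lower (13.3%) and 0 higher, against 25.3% lower and 12.1% higher over all tested features (median log2 fold change -0.07). ASF1, a histone chaperone, had 73.3, 79.4 and 76.5 FPKM in IMF17, against 92.8, 91.0 and 105 FPKM in IMX2109 (1.26-fold lower, limma adjusted p = 0.0019). RLF2, the large subunit of chromatin assembly factor 1, was 1.19-fold lower (limma adjusted p = 0.00875). TAH11, which encodes the licensing factor Cdt1, was 1.15-fold lower (0.0195), and RNH201, of ribonuclease H2, 1.16-fold lower (0.0374). After median-ratio rescaling ASF1 and RLF2 were called, and after nuclear rescaling ASF1 alone of the 30, against 11.8 and 8.84% lower over all features.

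In the list for dNTP synthesis, which supplies the building blocks, 6 of 13 genes were lower (46.2%) and 1 higher. Over all tested features 25.3% were lower and 12.1% higher. The 13 were not all enzymes of this synthesis, and also held SML1, DUN1, CRT10, RFX1 and TSA1. Of these, TSA1 was lower (limma adjusted p = 0.038) and the others were not called. YNK1, nucleoside diphosphate kinase, rose to 609, 599 and 563 FPKM in IMF17, against 450, 467 and 476 FPKM in IMX2109 (1.27-fold, limma adjusted p = 0.000103), and kept that call in all 19 alternative settings. RNR4, of the small subunit of ribonucleotide reductase, was 1.14-fold lower (limma adjusted p = 0.0027), CDC8, thymidylate kinase, 1.18-fold lower (0.00809) and DCD1, dCMP deaminase, 1.14-fold lower (0.0204). After median-ratio rescaling CDC8 was the only gene of the 13 still lower, and after nuclear rescaling 0 were lower, against 11.8 and 8.84% of all features.

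The regulators of G1/S transcription had 5 of 11 genes lower (45.5%) and 0 higher, against 25.3% lower over all tested features. After median-ratio rescaling 3 were lower and after nuclear rescaling 2, against 11.8 and 8.84% of all features. YHP1, a repressor acting through early cell cycle boxes, had 78.9, 78.3 and 77.4 FPKM in IMF17, against 100.5, 104 and 115 FPKM in IMX2109 (1.36-fold lower, limma adjusted p = 0.000131). NRM1, the corepressor of MBF, was 1.19-fold lower (limma adjusted p = 0.00302), WHI5, the inhibitor of SBF, 1.22-fold lower (0.00655) and YOX1, a relative of YHP1, 1.13-fold lower (0.0209). MBP1, the DNA-binding subunit of MBF, and SWI6, its partner, did not pass (log2 fold changes -0.09 and -0.08). SWI4, the DNA-binding subunit of SBF, was 1.15-fold lower (limma adjusted p = 0.0475). It was not called after median-ratio or nuclear rescaling (limma adjusted p = 0.118 and 0.299).

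Genes that peak at several points of the cycle, G1/S included, were listed as markers of the phases a growing culture holds. The G1/S list repeats RNR1 and CDC21 from the dNTP list and RAD27 from the fork list, so these lists are not independent. Of those repeated genes only RNR1 was called lower. The share over all tested features was 25.3% lower and 12.1% higher. Of 12 features of G1/S genes, 7 were lower and 0 higher, led by the S-phase cyclin CLB6 which averaged 15.7 ± 1.1 FPKM in IMF17, against 21.3 ± 1.25 FPKM in IMX2109 (SD, n = 3), with MNN1 1.17-fold and the G1 cyclin CLN2 1.14-fold lower. A feature named CLN1 on chromosome 4, 369 bases long, was also lower, whereas the full-length CLN1 on chromosome 13 did not pass (limma adjusted p = 0.336). Of 10 G2/M genes, 0 were lower and CLB1, a mitotic cyclin, was 1.21-fold higher (limma adjusted p = 0.00104), while CLB2 did not pass (log2 fold change -0.16). Of 11 M/G1 genes, 9 were lower and 0 higher, led by the daughter-cell separation genes EGT2 (165 ± 4.38 FPKM in IMF17, against 237 ± 7.41 FPKM in IMX2109, SD, n = 3), DSE4 (1.41-fold lower), SCW11 (1.30-fold) and DSE1 (1.30-fold). After nuclear rescaling 3 of 12 G1/S features, 0 of 10 G2/M genes and 7 of 11 M/G1 genes were lower, against 8.84% of all features. The part of phase composition in the lower replication transcripts was not tested, and in bulk RNA fewer cells in a phase and less RNA per cell cannot be told apart.

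**Figure D5:**
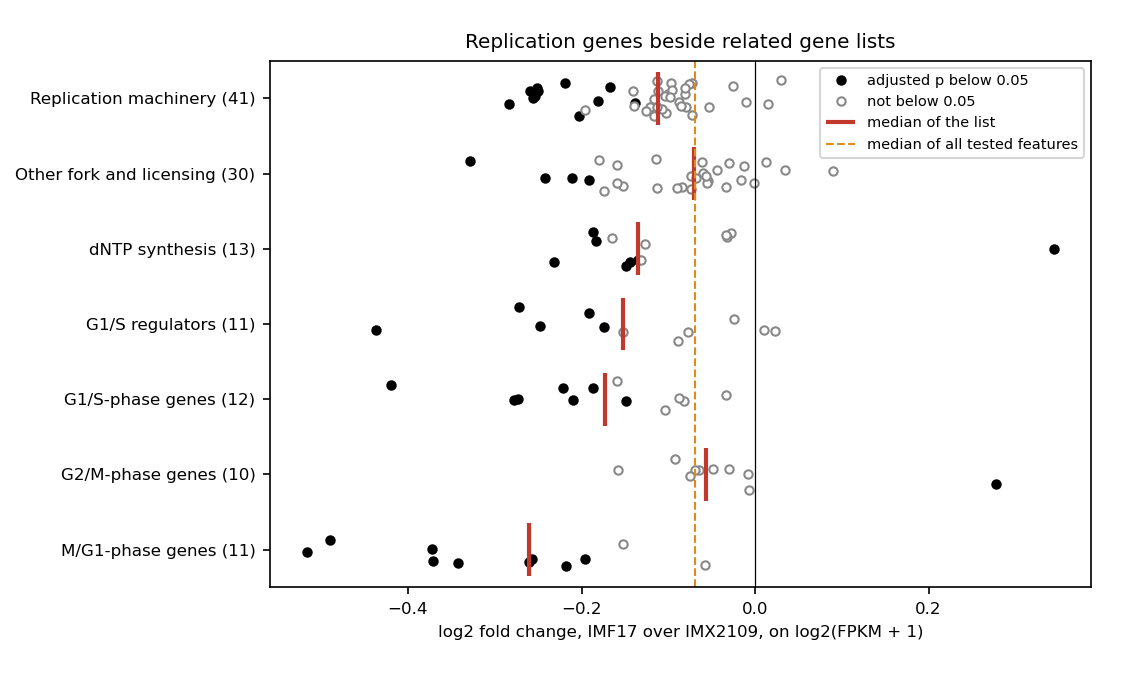
Log2 fold change of IMF17 over IMX2109 (horizontal axis, log2(FPKM + 1) scale) for the replication genes and 6 related lists, 1 point per feature, spread vertically only for legibility. Filled points passed limma adjusted p under 0.05; red bars are list medians and the dashed line is the median of all tested features, -0.07.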

How the data were processed

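The authors deposited 1 table of FPKM per library. The submitters' processing notes name featureCounts, DESeq2, edgeR, SAMtools and STAR 2.5.4a without their roles. The kit was stranded per the labels, and whether counting used strand is not given in them. By the chromosome names in the deposited tables, genes were modelled on a polished assembly of IMF17, so reads of IMX2109 were counted on IMF17 gene models. FPKM times gene length gave whole multiples of 1 read for 100% of values (tolerance 0.01), so IMF17 libraries held 14999412 to 15914985 reads and IMX2109 libraries 14696540 to 18801158.

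Features with a mean of at least 1 FPKM were tested with limma 3.58.1 (R 4.3.3, two-sided, with a trend on the prior variance) on log2(FPKM + 1), adjusted by Benjamini-Hochberg over 5425 features, threshold 0.05. Fold changes on this scale understate those of low genes; folds are ratios of mean FPKM. Intervals are 95%. Replicates are labelled biological triplicates. Of 41 gene models, 36 had their R64 length, and 0 overlapped another feature.

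Members and lists were chosen with earlier results of these data known. All members are named. Of other lists, up to 4 genes with the smallest p are named. MBP1, SWI6, SWI4, SML1, DUN1, CRT10, RFX1, TSA1, RNR1, CDC21, RAD27 and the full-length CLN1 were added after values were seen. DUT1 is not analysed here. Besides 16 alternative settings, 3 more were chosen after seeing the data: removing each library's trend with length (loess), alone or with median-ratio rescaling, and median-ratio rescaling without IMX2109 replicate 3. Python 3.11.15, pandas 2.3.3, numpy 2.4.6 and matplotlib 3.10.9 were used.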

Additional observations from a re-analysis of the deposited data

How the results depend on the processing

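The 11 lower replication genes became 5 after median-ratio rescaling, 1 after nuclear rescaling, 5 with the length trend removed and median-ratio rescaling, and 6 with median-ratio rescaling without IMX2109 replicate 3, and ranged from 5 to 12 on leaving out 1 library. With the length trend alone removed 15 were lower, MCM5, MCM6, ORC3, POL1 and POL12 being gained and RFC3 lost. The 10 lower genes of the other fork and dNTP list became 3, 1, 3 and 5 in the same 4 rescaled settings, and 4 to 11 on leaving out 1 library. Over all features the 1375 lower became 639, 480, 817 and 829, and 938 to 1324 on leaving out 1 library; the 654 higher became 1033 after nuclear rescaling and 525 to 757 on leaving out 1 library. Rescaling by the median ratio or on nuclear reads multiplies every FPKM of a library by the same factor, by construction. Removing the length trend shifts each gene by an amount that depends on its length. With the replicate number as a block, the same 11 replication genes were lower, with 1517 features lower and 685 higher among all tested. Deviations from the strain mean correlated at 0.095, -0.052 and 0.14 between same-numbered libraries. Between differently numbered libraries the correlations ran from -0.15 to 0.096. These few values cannot show whether the numbers pair the samples.

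No called gene changed sign. Among genes that did not pass, nuclear rescaling turned the log2 fold change positive in ORC5 (0.021), MCM2 (0.067), MCM3 (0.014), MCM4 (0.018), CDC45 (0.0056), POL2 (0.077), POL3 (0.0061), POL31 (0.014), RFC1 (0.021), RFA1 (0.042) and RFA2 (0.015). Median-ratio rescaling did so in MCM2 (0.038), POL2 (0.050) and RFA1 (0.012), and with the length trend removed as well in MCM2 (0.0086). Median-ratio rescaling without IMX2109 replicate 3 did so in ORC1 (0.065), MCM2 (0.074), MCM4 (0.044), MCM6 (0.0068), CDC45 (0.030), POL1 (0.011), POL2 (0.13), DPB2 (0.053), POL3 (0.014), POL31 (0.046), RFC1 (0.019) and RFA1 (0.042). On leaving out 1 library the sign changed in ORC1 (-0.215 to 0.022), MCM2 (-0.0934 to 0.0304), MCM4 (-0.142 to 0.0001), SLD5 (-0.0522 to 0.0571), DPB11 (-0.0196 to 0.106), POL2 (-0.11 to 0.088), DPB2 (-0.198 to 0.010) and POL31 (-0.129 to 0.0011). None of these values passed the test, and the cause was not tested.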
